A study of Mus musculus with 6 samples.

Results

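Solute carriers are membrane proteins that move amino acids, sugars, metals, ions, vitamins and metabolites across the plasma membrane and the membranes of mitochondria, lysosomes and the Golgi, and their gene names start with Slc. The 187 genes described here are those with a name of this form (Slc, a family number, the letter a and a member number) whose probe was well above background on both arrays of untreated mouse embryonic fibroblasts. The array carried 292 such names. Of the others, 100 were not well above background on both untreated arrays, and 5 (Slc7a11, Slc3a2, Slc30a1, Slc2a1 and Slc5a2) were left out by name. Where a gene had several probes, the probe with the highest mean signal over all arrays stood for it. The 187 fall into 39 families, and 4 of them carry the name without being carriers (Slc4a1ap, Slc7a6os, Slc9a3r1 and Slc9a3r2, which are binding partners or neighbours of carriers).

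The cells were primary fibroblasts grown out of mouse embryos, with no strain, genotype or embryonic age given in the sources used here, and what they shared was growth in DMEM with serum. They were harvested untreated (0 h), or after 2 h or 4 h in 1 mM H2O2, an oxidant, and each of these 3 groups has 2 one-colour arrays from separate experiments. The samples hold no untreated cells of 2 h or 4 h in culture, and each time point sat at 1 position on both slides, with the arrays of replicate 1 on one slide and those of replicate 2 on the other, so the treatment, time in culture and slide position cannot be told apart. What set the experiments of a group apart is not given, so p-values measure the spread between these arrays, which may be technical.

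Cells depend on solute carriers for the raw materials of metabolism and of antioxidant defence: amino acid carriers supply the building blocks of glutathione, mitochondrial carriers of the Slc25 family link the matrix with the cytosol, and metal carriers set the levels of iron, which reacts with peroxide, and of zinc. Some are found in most cells, such as the ADP/ATP carriers of mitochondria. Others are known mainly from kidney, gut, blood cells or nerve terminals.

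A level is given as scaled signal, the background-corrected signal of the probe as a percentage of the 75th percentile of all non-control spots on that array. That percentile lay between 674 and 883 on the 6 arrays, between 57.3% and 68.0% of the spots were well above background, and precision is limited by how few arrays there are. Scaled signal can be compared between arrays for 1 probe, not between probes. Over the members, the mean scaled signal of untreated cells ran from 2.1 to 12600 with a median of 66.3; 13 members lay over 1000 and 41 under 10. Of the 187, 172 were well above background on all 6 arrays, while 1 had no 2 h array and 10 had no 4 h array well above background. Members just inside the detection rule were Slc4a1 (scaled signal 2.64 and 1.88 on the untreated arrays), Slc16a12 (2.88 and 2.09) and Slc17a6 (2.9 and 2.2), and names just outside it were Slc13a5 (16.4 and 0.559), Slc9a2 (2.54 and 3.06) and Slc3a1 (2.56 and 2.51), each with 1 untreated array well above background. All 13 fibroblast markers listed, such as the collagen gene Col1a1, Vim and Thy1, were well above background in untreated cells.

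The promoters of 140 of the 187 genes are in a RefSeq table (build GRCm38.p6), as windows from 250 bases before to 50 after a transcription start. Shown are 4 members with large rises (Slc23a3, Slc2a5, Slc45a3 and Slc19a2) and 2 with large falls (Slc25a29 and Slc43a1), picked after their values were seen so that genes with opposite changes can be read side by side; Slc45a3 has 2 starts in the table, and the first is shown. Sequences run 5′ to 3′ on the gene's strand, and capitals mark matches to any of 6 motifs, on either strand and allowing overlaps: the antioxidant response element core TGACNNNGC, the AP-1 site TGANTCA, the cyclic AMP response element TGACGTCA, the composite C/EBP and ATF core TGATGNAA, TGCNCNC, a loose form of the metal response element core, and the E-box CACGTG. N stands for any base, so a match to TGCNCNC need not be a metal response element.
Slc23a3 (chr1:75133841-75134140, minus strand): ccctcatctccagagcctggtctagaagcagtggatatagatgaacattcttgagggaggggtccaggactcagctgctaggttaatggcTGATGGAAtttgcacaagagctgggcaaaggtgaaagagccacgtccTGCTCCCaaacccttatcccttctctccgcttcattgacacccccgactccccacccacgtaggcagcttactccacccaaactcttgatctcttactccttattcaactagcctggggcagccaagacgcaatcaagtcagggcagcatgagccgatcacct
Slc2a5 (chr4:150119094-150119393, plus strand): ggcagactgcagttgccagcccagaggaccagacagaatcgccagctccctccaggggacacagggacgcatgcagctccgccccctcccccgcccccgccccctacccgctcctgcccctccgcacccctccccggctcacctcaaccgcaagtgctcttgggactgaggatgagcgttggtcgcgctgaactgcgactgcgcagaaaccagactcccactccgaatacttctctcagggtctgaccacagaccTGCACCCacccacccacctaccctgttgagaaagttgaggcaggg
Slc45a3 (chr1:131962665-131962964, plus strand): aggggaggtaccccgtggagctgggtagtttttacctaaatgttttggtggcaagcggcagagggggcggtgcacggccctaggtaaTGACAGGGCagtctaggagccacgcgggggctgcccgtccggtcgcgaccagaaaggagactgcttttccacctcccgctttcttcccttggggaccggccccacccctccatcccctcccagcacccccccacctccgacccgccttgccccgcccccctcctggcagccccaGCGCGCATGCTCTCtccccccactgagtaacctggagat
Slc19a2 (chr1:164248796-164249095, plus strand): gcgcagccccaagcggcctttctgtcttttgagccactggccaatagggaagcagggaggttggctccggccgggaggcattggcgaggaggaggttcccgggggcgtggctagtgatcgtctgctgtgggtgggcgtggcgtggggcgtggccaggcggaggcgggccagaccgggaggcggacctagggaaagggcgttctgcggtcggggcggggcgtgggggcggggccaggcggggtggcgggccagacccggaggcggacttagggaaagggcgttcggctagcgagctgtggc
Slc25a29 (chr12:108835827-108836126, minus strand): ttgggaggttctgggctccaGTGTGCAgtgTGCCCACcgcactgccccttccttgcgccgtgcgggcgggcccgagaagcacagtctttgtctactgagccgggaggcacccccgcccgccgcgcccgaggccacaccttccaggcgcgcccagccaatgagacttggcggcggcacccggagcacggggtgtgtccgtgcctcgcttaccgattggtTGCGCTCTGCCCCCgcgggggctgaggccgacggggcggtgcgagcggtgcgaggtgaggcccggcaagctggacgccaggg
Slc43a1 (chr2:84840073-84840372, plus strand): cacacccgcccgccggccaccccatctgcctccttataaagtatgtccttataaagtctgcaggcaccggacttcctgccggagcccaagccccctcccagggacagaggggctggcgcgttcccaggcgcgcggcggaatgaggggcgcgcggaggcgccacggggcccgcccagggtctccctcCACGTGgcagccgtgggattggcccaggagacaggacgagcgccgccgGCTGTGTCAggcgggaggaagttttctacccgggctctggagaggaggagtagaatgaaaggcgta

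In these windows Slc23a3 has a TGATGNAA match starting 160 bases and a TGCNCNC match 113 bases before the start. Slc45a3 has the antioxidant response element core 163 bases before it, and Slc43a1, which fell, has the same core 16 bases before it and an E-box at 64 bases. Slc19a2 has no match to any of the 6 in this window, and Slc2a5 has a single TGCNCNC match. Over all members with a window, 20.7% had the antioxidant response element core against 14% of 27025 genes, 19.3% had an E-box against 8.09%, 65% had TGCNCNC against 53.6%, 7.14% had the AP-1 site against 8.97%, 2.14% had TGACGTCA against 2.03% and 2.86% had TGATGNAA against 4.51%. The members were detected in untreated cells and the 27025 genes were not selected by detection, so these shares set unlike groups side by side. The antioxidant response element core was in 7 of the 41 members that rose at some time, 4 of the 27 that fell and 18 of the 72 that did neither. A match is only a run of letters and was not tested for binding.

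The first comparison asked which carriers changed within 2 h in H2O2. Changes are log2 differences between group means from a limma model of all 6 arrays, given ± 1 standard error (SE; n = 2 arrays in each group), with Benjamini-Hochberg adjustment of p across the 17336 genes tested, and a gene rose or fell where the adjusted p was under 0.05. Of the 187 members 42 rose (22.5%), 18 fell (9.63%) and 127 did not pass, while 23.7% of all genes tested rose and 15.3% fell (20.8% and 16.2% of the genes well above background in untreated cells). The share that rose was thus close to the background, and the share that fell was below it by an amount that was not tested. The median change of the members was 0.12, as was that of all genes tested. In bulk RNA such as this, fewer cells of a type and less RNA per cell cannot be told apart. Of the 187 members, 91 had both 2 h arrays above both untreated arrays and 40 had both below, where 47.9% and 27.4% of all genes tested did. Among the members past the test 8 rises and 1 fall exceeded 1 on the log2 scale, where 7.31% of all genes tested rose and 3.43% fell by as much (3.75% and 3.63% of those well above background in untreated cells).

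The split between rises and falls at 2 h depended on the scaling. The 42 rises and 18 falls were 27 and 23 after quantile normalization, 16 and 27 with the arrays centred on their medians, 12 and 57 without scaling, 10 and 39 after spike-in scaling, 27 and 24 with normexp background correction and quantile normalization, 7 and 2 with normexp and the 75th percentile, and 59 and 24 with the slide as a block. The median of all genes itself was -0.08, -0.22 and -0.25 under centring, no scaling and spike-in scaling, and the members' median stayed within 0.01 of it. Calls over all genes were not counted under the alternatives, so these counts, here and below, describe the members only. All 18 falls, but 10 of the 42 rises, passed in the same direction under quantile, median, no and spike-in scaling, and 14 of the 42 rises were negative after spike-in scaling. Fewer members also passed without untreated replicate 1 (22 rose, 7 fell), untreated replicate 2 (18 and 13), 2 h replicate 1 (21 and 9) or 2 h replicate 2 (17 and 7).

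At 4 h against untreated cells 46 members rose (24.6%), 30 fell (16%) and 111 did not pass, against a background of 24.6% and 18.4%, so both shares were close to those of all genes (22.3% and 19.4% of the genes well above background in untreated cells). The 4 h arrays lay above the untreated ones without overlap for 70 members and below them for 73, where 41.7% and 31.4% of all genes did. The members' median was 0.02 and that of all genes 0.07. The counts were 39 and 39 after quantile normalization, 25 and 40 after median centring, 20 and 72 without scaling, 17 and 53 after spike-in scaling, 37 and 45 with normexp and quantile normalization, 14 and 8 with normexp and the 75th percentile, and 51 and 42 with the slide as a block. Of the 30 falls 29 passed under all 4 other scalings, and 16 of the 46 rises did. Without untreated replicate 1 the counts were 25 and 19, and without untreated replicate 2 they were 24 and 26.

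Both comparisons share the untreated arrays, so their calls are not independent. Of the members 33 rose at both times (17.6%, against 17.2% of all genes) and 11 fell at both (5.88%, against 7.67%). Of the genes well above background in untreated cells, 14.7% rose and 8.12% fell at both times. A further 9 members rose at 2 h only (4.81%, against 6.25% of all genes tested) and 13 at 4 h only (6.95%, against 5.77%). Falls at 2 h only numbered 7 (3.74%, against 6.03%) and falls at 4 h only 19 (10.2%, against 10.5%), and 95 members passed at neither time (50.8%, against 44.8%). No member rose at 2 h and fell at 4 h (0.248% of all genes) or fell and then rose (1.63%).

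**Figure D1:**
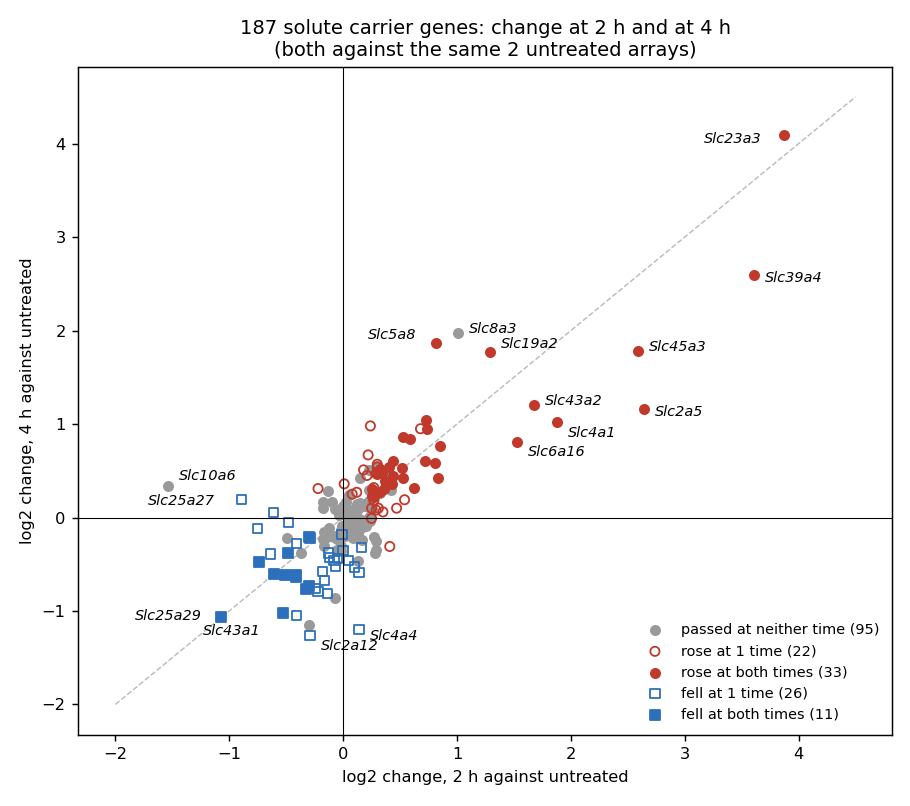
Log2 change of each of the 187 members at 2 h (horizontal axis) and 4 h (vertical axis) against the same untreated arrays; filled symbols passed the test at both times, open coloured symbols at 1 time and grey ones at neither, and the dashed line marks equal change. Most members lie within 1 log2 unit of 0 on both axes, Slc23a3 and Slc39a4 lie farthest out, and Slc2a5, Slc45a3 and Slc39a4 lie below the dashed line.

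Between 2 h and 4 h, 16 members rose (8.56%) and 28 fell (15%), where 13.4% and 16.4% of all genes did (13.9% and 15.9% of those well above background in untreated cells). The arrays of the 2 times did not overlap for 43 members higher and 90 lower at 4 h, where 25.9% and 41.1% of all genes were so. With the slide as a block 21 rose and 53 fell, and after spike-in scaling 10 and 12. These counts fell to 3 and 10 without 2 h replicate 1, 3 and 13 without 2 h replicate 2, 8 and 18 without 4 h replicate 1, and 8 and 13 without 4 h replicate 2.

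Calls at 2 h were also counted by brightness. With the members split by mean signal over all 6 arrays, treated ones included, into equal parts, 19 of the 62 dimmest rose at 2 h and 2 fell, 9 of the 62 in the middle rose and 12 fell, and 14 of the 63 brightest rose and 4 fell. Of all genes well above background in untreated cells with mean signals in the same ranges, 18.3% rose and 17.1% fell among the dimmest, 16.5% and 24.3% in the middle, and 25.4% and 10.5% among the brightest. Differences between these shares were not tested. Of the 8 rises above 1 on the log2 scale at 2 h, 6 belonged to the 62 dimmest. Rises of this size were not counted among all genes of the same brightness, so this number cannot be read as a trait of the members.

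The largest change among the vitamin, nucleoside and choline carriers, and among all members, was that of Slc23a3, an orphan member of the ascorbate carrier family known from the kidney. Its scaled signal was 16.5 and 11.4 on the untreated arrays, 208 and 195 after 2 h, and 245 and 224 after 4 h. The treated arrays lay far above the untreated ones and did not overlap with them. The change was 3.87 ± 0.19 at 2 h (14.7-fold, adjusted p = 0.000449) and 4.09 ± 0.19 at 4 h (17.1-fold, adjusted p = 0.0005), and it passed under all 19 alternatives, with values from 3.06 to 4.14 and from 3.30 to 4.36. The ascorbate carrier Slc23a2 had a change of 0.34 at 2 h (adjusted p = 0.0162, but 0.00 without scaling and -0.04 after spike-in scaling) and rose by 0.48 at 4 h.

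Slc19a2, which carries thiamine into the cell, had a bright probe and a large change. Its scaled signal was 532 and 513 untreated, 1290 and 1270 at 2 h, and 1830 and 1740 at 4 h. Each group lay above the one before it, with no overlap, and the arrays of a group were close together. The rise was 1.29 ± 0.06 at 2 h (2.44-fold, adjusted p = 0.000391) and 1.77 ± 0.06 at 4 h (3.41-fold, adjusted p = 0.000276), and the further rise from 2 h to 4 h also passed (0.48, adjusted p = 0.00714). The folate carrier Slc19a1 of the same family did not pass at either time (0.03 and -0.10). The choline carrier Slc44a1 rose at 4 h (0.47, adjusted p = 0.0176, 0.21 after spike-in scaling), and the nucleoside carrier Slc29a2 fell by 0.30 at 2 h and by 0.21 at 4 h, a change of 0.17 with normexp background correction at 4 h. The main equilibrative nucleoside carrier Slc29a1 did not pass (0.25 and 0.09). Of the 10 members of this class 3 rose and 1 fell at 2 h, and 4 rose and 1 fell at 4 h, where 23.7% and 15.3% of all genes rose and fell at 2 h and 24.6% and 18.4% at 4 h.

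Classes followed the family numbers, so a class can hold members whose cargo differs from its name. Among the 25 carriers of zinc, iron, copper, manganese and magnesium 7 rose (28%) and 1 fell (4.0%) at each time, where 23.7% and 15.3% of all genes did at 2 h and 24.6% and 18.4% at 4 h. The median change was 0.16 at 2 h and 0.15 at 4 h. The values are a description of the class, since no test of the class as a whole was made.

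Slc39a4 encodes a plasma membrane zinc importer known from the gut. Its scaled signal was 4.17 and 4.38 untreated, 45.1 and 60.4 at 2 h, and 25.9 and 25.8 at 4 h. All treated arrays lay above the untreated ones, and the 4 h arrays lay below the 2 h arrays. It rose by 3.61 ± 0.15 at 2 h (12.2-fold, adjusted p = 0.000316) and by 2.60 ± 0.15 at 4 h (6.05-fold, adjusted p = 0.000743), and the step down from 2 h to 4 h was -1.01 (adjusted p = 0.0108, up to 0.119 over the alternatives).

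Other zinc importers of the Slc39 family had smaller changes. Slc39a6 had a scaled signal of 1030 and 1020 untreated, 1320 and 1370 at 2 h, and 1490 and 1480 at 4 h, a rise of 0.40 and then 0.54 (0.02 and 0.28 after spike-in scaling). Slc39a10, its close relative, did not pass at 2 h (0.30) and rose by 0.57 at 4 h (0.31 after spike-in scaling). Slc39a7, which releases zinc from the endoplasmic reticulum, had 6950 and 6660 untreated and 8300 and 8350 at 2 h; its change of 0.29 (adjusted p = 0.0449) was -0.05 without scaling and -0.08 after spike-in scaling. Slc39a3 went the other way, from 121 and 111 untreated to 105 and 91.7 at 2 h and 71.9 and 64.9 at 4 h, and its fall passed at 4 h (-0.76 ± 0.10, adjusted p = 0.00608). Slc39a1 (0.32 and 0.26), Slc39a14 (0.30 and 0.55), which also carries iron, and Slc39a13 (-0.17 and -0.16) did not pass. A second probe of Slc39a14, well above background on all 6 arrays, had 0.69 and 0.80. Of the zinc exporters Slc30a4 had a change of 0.44 at both times (0.07 and 0.19 after spike-in scaling), Slc30a6 had 0.25 at 2 h (-0.12 after spike-in scaling) and -0.01 at 4 h, and Slc30a5, Slc30a7 and Slc30a9 did not pass.

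Slc40a1 encodes ferroportin, the only known iron exporter of mammalian cells. Its scaled signal was 149 and 141 untreated, 94.2 and 95.4 at 2 h, and 154 and 147 at 4 h. The 2 h arrays lay below all others, and the 4 h arrays overlapped the untreated range. The change at 2 h was -0.61 ± 0.06 (adjusted p = 0.00268, 1.53-fold lower), the change at 4 h was 0.05 (adjusted p = 0.533), and the return between 2 h and 4 h was 0.67 (adjusted p = 0.00381); the fall and the return passed under all 19 alternatives.

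The iron importer Slc11a2 had 64.2 and 68.5 untreated, 55.7 and 58.5 at 2 h, and 78.4 and 86.6 at 4 h. Its 2 h arrays were the lowest and its 4 h arrays the highest, with a rise of 0.31 at 4 h (adjusted p = 0.0338) and of 0.53 between 2 h and 4 h. Its probes disagreed: a second probe had -0.97 at 4 h and another 0.29, so the direction depends on the probe. Slc11a1, the related carrier of phagocytes, rose by 0.52 and 0.53 (0.15 and 0.27 after spike-in scaling), and the low-affinity copper carrier Slc31a2 rose by 0.51 at 4 h, with 0.50 on its other probe. The copper importer Slc31a1 did not pass (0.22 and 0.16). The magnesium carriers Slc41a1, Slc41a2 and Slc41a3 did not pass at either time.

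**Figure D2:**
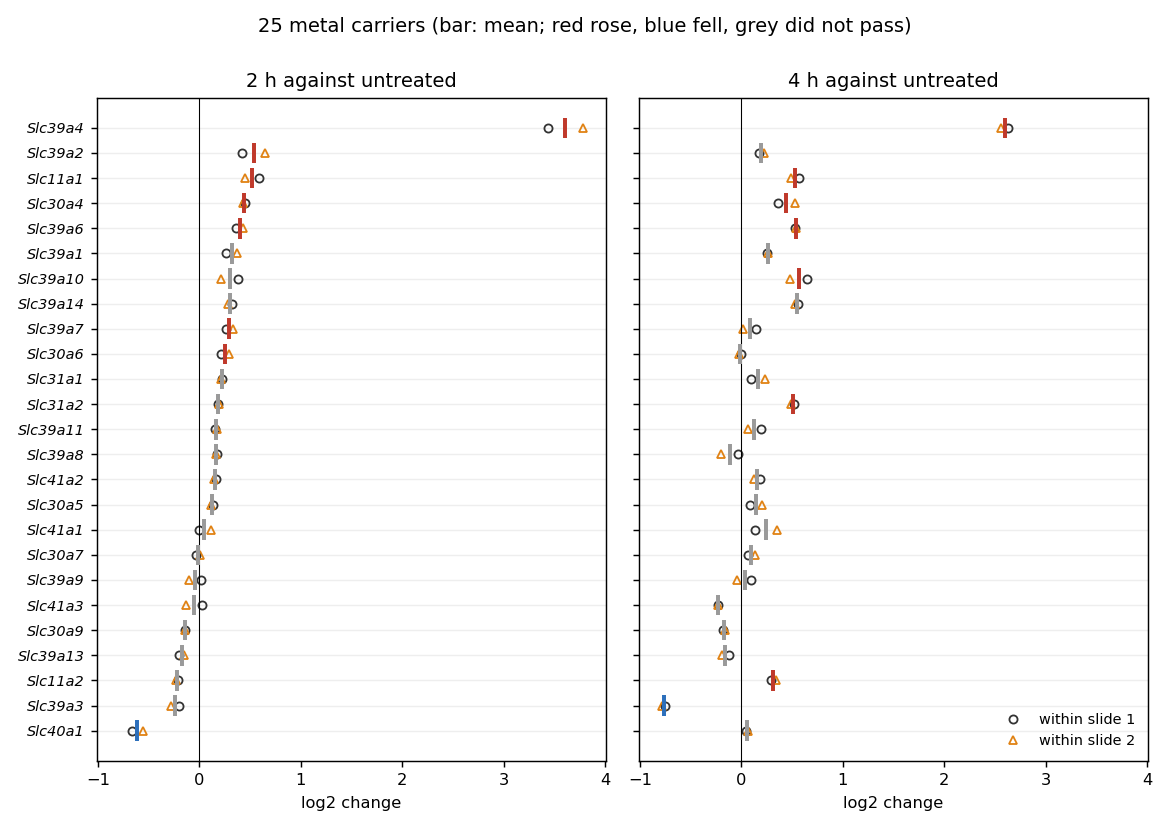
Log2 change of the 25 metal carriers at 2 h (left) and 4 h (right) against untreated cells, ordered by the 2 h value; bars are means over 2 arrays per group, coloured red where the gene rose, blue where it fell and grey where it did not pass, and open symbols are the change within each slide. Slc39a4 stands apart at both times, and Slc40a1 lies at -0.61 at 2 h and 0.05 at 4 h.

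Mitochondrial carriers of the Slc25 family, which exchange nucleotides, phosphate, amino acids and cofactors across the inner membrane, numbered 26. At 2 h 6 rose (23.1%) and 7 fell (26.9%), where 23.7% and 15.3% of all genes did. At 4 h 6 rose and 6 fell (23.1% each way, where 24.6% and 18.4% of all genes did). The family thus held falls at a share above that of all genes at 2 h, a difference that was not tested. The 6 rises at 2 h did not exceed 0.43, and 5 of them (Slc25a3, Slc25a4, Slc25a5, Slc25a22 and Slc25a37) were negative both without scaling and after spike-in scaling.

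The deepest fall among the mitochondrial carriers was that of Slc25a29, a carrier of basic amino acids into mitochondria. Its scaled signal was 49 and 47.2 untreated, 23.3 and 22.5 at 2 h, and 24.1 and 22.2 at 4 h. All 4 treated arrays lay below the untreated ones, and the 2 h and 4 h arrays overlapped. It fell by 1.07 ± 0.07 at 2 h (2.10-fold lower, adjusted p = 0.000846) and by 1.06 ± 0.07 at 4 h (adjusted p = 0.00103, up to 0.0619 over the alternatives), and its other probe had -1.12 and -1.40. Slc25a26, which brings S-adenosylmethionine into mitochondria, stayed down in the same way: 69.0 and 69.5 untreated, 45.2 and 45.4 at 2 h, and 45.8 and 45.5 at 4 h, a fall of 0.61 and 0.60, with -0.35 and -0.20 on its second probe.

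Others fell in steps or returned. The aspartate/glutamate carrier Slc25a13 fell by 0.30 at 2 h and 0.73 at 4 h, and Slc25a14, a member of the uncoupling protein group, by 0.33 and 0.76, and the step from 2 h to 4 h passed for both (-0.43 and -0.42). The related aspartate/glutamate carrier Slc25a12 did not pass (0.09 and -0.06). Slc25a28, mitoferrin 2, which brings iron into mitochondria, had 241 and 219 untreated, 144 and 130 at 2 h, and 229 and 196 at 4 h. Its 2 h arrays lay below all others and its 4 h arrays overlapped the untreated ones, with a fall of 0.75 ± 0.11 at 2 h (adjusted p = 0.00841, up to 0.0572 over the alternatives), a change of -0.12 at 4 h and a return of 0.63 between them (adjusted p = 0.0169, up to 0.119). Slc25a27, another uncoupling protein relative known from the brain, followed the same course at a low level: 16.9 and 14, then 8.62 and 7.96, then 15.9 and 19.4. It fell by 0.89 ± 0.15 (adjusted p = 0.0112, up to 0.357 over the alternatives) and returned by 1.08 (adjusted p = 0.00868, up to 0.104), with -0.82 and 0.79 on a second probe.

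The paralogue of mitoferrin 2, mitoferrin 1 (Slc25a37), had 191 and 191 untreated, 226 and 229 at 2 h, and 239 and 233 at 4 h. Its treated arrays were higher by 0.25 and 0.31, past the test, but the sign at 2 h was negative after spike-in scaling (-0.12), and its other probes had 1.02 and -0.31 at 2 h and 1.20 and 0.02 at 4 h. Slc25a36, a pyrimidine nucleotide carrier, rose at 4 h, from 27.1 and 29.9 to 50.2 and 62.5 (0.98 ± 0.14, adjusted p = 0.00714), while its other probe had 0.15 (adjusted p = 0.389). The glutamate carrier Slc25a22 rose by 0.52 at 4 h (0.27 after spike-in scaling). The ADP/ATP carriers Slc25a4 and Slc25a5 had 12900 and 12300, and 10200 and 9640, in untreated cells; their changes at 2 h were 0.27 and 0.32, but -0.10 and -0.05 after spike-in scaling. The oxoglutarate carrier Slc25a11 (0.17 and -0.24), the citrate carrier Slc25a1 (0.09 and 0.08) and the ATP-Mg/phosphate carrier Slc25a25 (-0.18 and 0.17) did not pass against untreated cells; for Slc25a11 the step from 2 h to 4 h did (-0.41).

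**Figure D3:**
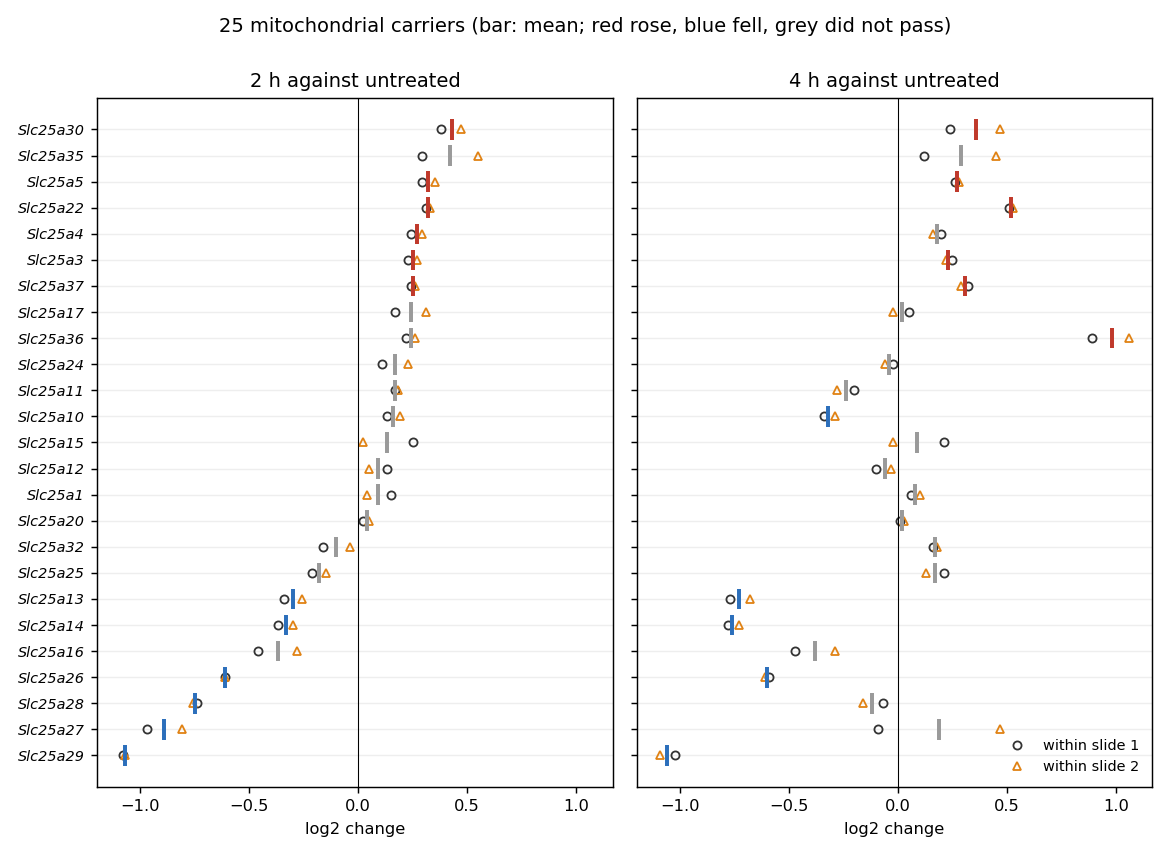
Log2 change of 25 of the 26 mitochondrial carriers at 2 h (left) and 4 h (right) against untreated cells, ordered by the 2 h value, with the same symbols as in the plot of metal carriers. Slc25a29 lies near -1.07 in both panels, Slc25a27 and Slc25a28 are low at 2 h and near 0 at 4 h, and Slc25a36 is the highest at 4 h.

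The sugar carriers were the class with falls at 4 h in the largest number. Of 21 members of the Slc2, Slc5, Slc37 and Slc45 families 7 rose and 1 fell at 2 h (33.3% and 4.76%, where 23.7% and 15.3% of all genes did). At 4 h 7 rose and 7 fell (33.3% each way, where 24.6% and 18.4% of all genes did). Slc2a5, the fructose carrier GLUT5, had a scaled signal of 5.53 and 4.45 untreated, 30.9 and 31.1 at 2 h, and 11.3 and 10.9 at 4 h. It was highest at 2 h, and the 4 h arrays lay between the other groups with no overlap. It rose by 2.64 ± 0.12 at 2 h (6.25-fold, adjusted p = 0.00037) and by 1.16 ± 0.12 at 4 h (2.24-fold), and fell between the times by 1.48 (adjusted p = 0.00294, 0.234 at the highest over the alternatives).

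Slc45a3, a proton-coupled sugar carrier known as prostein in the prostate, followed the same course: 8.57 and 7.45 untreated, 49.9 and 46.4 at 2 h, and 28.8 and 26.2 at 4 h. It rose by 2.59 ± 0.10 at 2 h (6.03-fold, adjusted p = 0.00028) and 1.78 ± 0.10 at 4 h (3.43-fold, adjusted p = 0.000727), with a step down of -0.81 between them (adjusted p = 0.00729, up to 0.215 over the alternatives). Its relatives Slc45a1 and Slc45a4 did not rise in this way, with 0.35 at 2 h for Slc45a1 (-0.02 after spike-in scaling) and -0.02 for Slc45a4. Slc5a8, a sodium-coupled carrier of lactate and short fatty acids, kept rising, from 3.33 and 2.44 untreated to 4.48 and 5.67 and then 10.1 and 10.7. It rose by 0.82 ± 0.19 at 2 h (adjusted p = 0.0298, 0.0511 when slides were blocked) and by 1.87 ± 0.19 at 4 h (adjusted p = 0.00304).

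Other members of the class went both ways. Slc2a9, the urate carrier GLUT9, had 3.93 and 2.79 untreated, 5.43 and 5.62 at 2 h, and 6.75 and 6.09 at 4 h, and rose by 0.74 and 0.95 (adjusted p = 0.0317 and 0.0145; 0.37 and 0.70 after spike-in scaling, the first not past the test). Slc5a10, a sodium-coupled sugar carrier, rose by 0.59 and 0.84 (0.21 and 0.58 after spike-in scaling). Slc2a4, the insulin-responsive carrier GLUT4, had 41.2 and 39.5 untreated, 36.6 and 36.4 at 2 h, and 24.2 and 21.9 at 4 h, and fell by 0.81 ± 0.07 at 4 h (adjusted p = 0.00204); with normexp background correction and the 75th percentile its change was -0.35 and did not pass (adjusted p = 0.146). Slc2a12 had 6.37 and 5.69 untreated and 2.51 and 2.50 at 4 h, where neither array was well above background, so it fell at least 1.68-fold. With normexp background correction and the 75th percentile its change was 0.41, the opposite direction. With normexp and quantile normalization all 30 members that fell at 4 h kept their direction and passed. The glucose-6-phosphate carrier Slc37a4 fell by 0.43 at 4 h, and its relative Slc37a2 rose by 0.67. Slc2a3, the carrier GLUT3, did not pass (0.09 and -0.22), nor did Slc2a6, Slc2a8 or Slc2a10. In the same family-based class, the multivitamin carrier Slc5a6 fell by 0.41 and 0.64, the choline carrier Slc5a7 fell by 0.67 at 4 h (-0.06 with normexp and the 75th percentile, adjusted p = 0.8), and the inositol carrier Slc5a3 rose by 0.53 and 0.42 (0.16 and 0.17 after spike-in scaling).

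**Figure D4:**
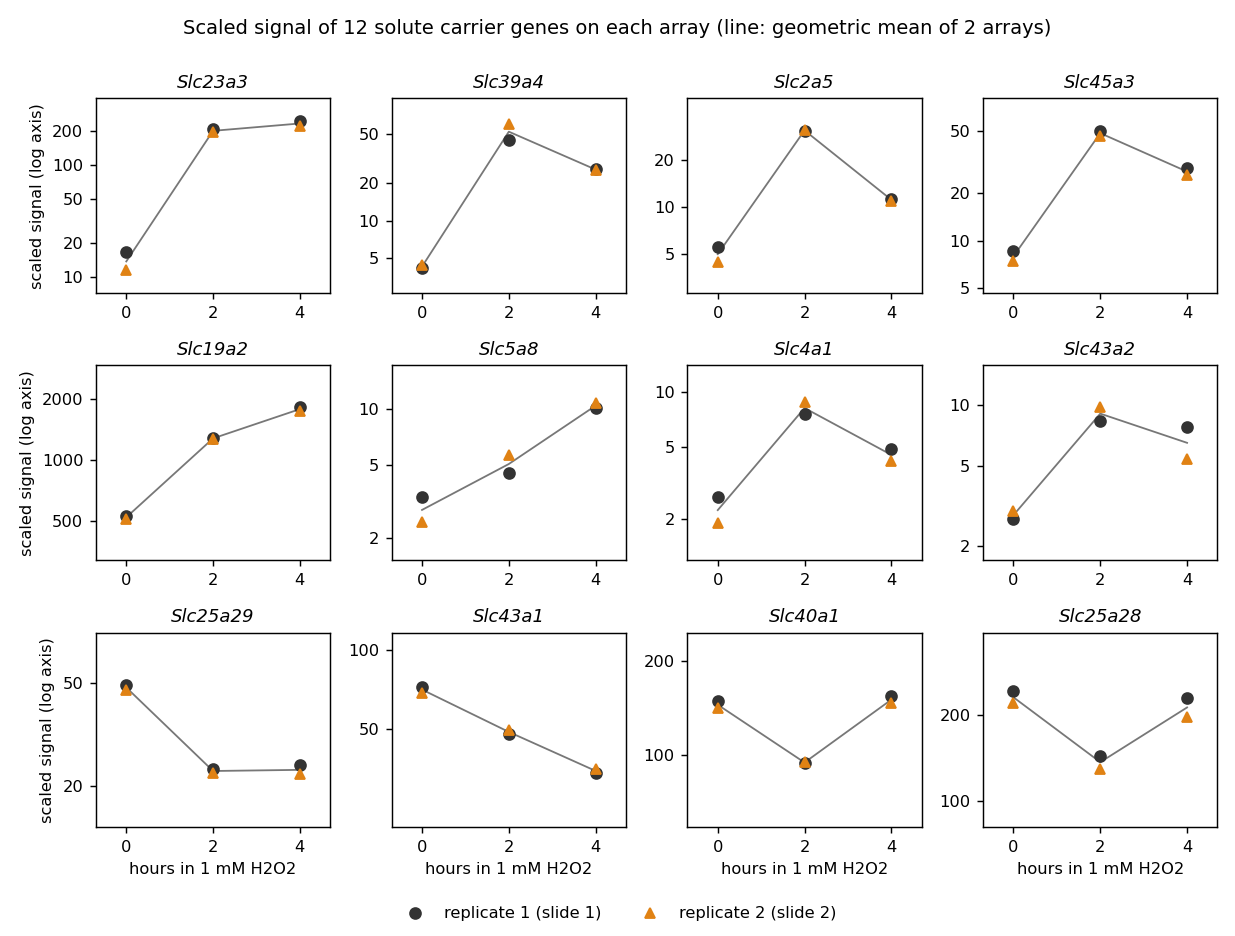
Scaled signal (percent of the array's 75th percentile, log axis) of 12 members against hours in H2O2; circles are replicate 1 and triangles replicate 2 of each time point, each replicate number on its own slide, and the line joins geometric means. The arrays of a group lie close together for Slc19a2, Slc25a29, Slc43a1 and Slc40a1, and Slc39a4, Slc2a5 and Slc45a3 peak at 2 h.

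Of the 32 amino acid and peptide carriers 8 rose and 3 fell at 2 h (25% and 9.38%, against 23.7% and 15.3% of all genes). At 4 h 9 rose and 4 fell (28.1% and 12.5%, against 24.6% and 18.4%). Several bright amino acid carriers did not pass. Slc1a5, a glutamine carrier, had 1540 and 1380 untreated, 1620 and 1460 at 2 h, and 1480 and 1350 at 4 h, with overlapping groups and changes of 0.08 and -0.04. Slc7a5, the light chain of a large neutral amino acid exchanger (0.04 and -0.11), the glycine carrier Slc6a9 (-0.02 and -0.13) and the taurine carrier Slc6a6 (0.24 and -0.04) did not pass either. Slc38a2, a sodium-coupled neutral amino acid carrier known to respond to amino acid shortage, fell from 2760 and 2640 to 2240 and 2170 at 2 h (-0.29, adjusted p = 0.0373), with -0.08, -0.92 and -0.39 on 3 other probes, and did not pass at 4 h (-0.22).

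The paired relatives Slc43a1 and Slc43a2, both carriers of large neutral amino acids, moved in opposite directions. Slc43a1 went from 72.5 and 68.9 untreated to 48 and 49.9 at 2 h and 34.2 and 35.6 at 4 h, each group below the one before it. It fell by 0.53 ± 0.06 at 2 h (adjusted p = 0.00424, up to 0.129 over the alternatives) and by 1.02 ± 0.06 at 4 h (2.03-fold lower, adjusted p = 0.000857). Slc43a2 went from 2.71 and 2.98 to 8.37 and 9.84 and then 7.79 and 5.42, a rise of 1.68 ± 0.20 (3.20-fold, adjusted p = 0.00451) and 1.20 ± 0.20 (2.29-fold, adjusted p = 0.0108), with an adjusted p of up to 0.151 and 0.0777 over the alternatives. Slc43a3 did not pass (0.13 and -0.22).

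Of the basic amino acid carriers Slc7a1, Slc7a3 and Slc7a7 rose, Slc7a6, the relative of Slc7a7, fell at 2 h (-0.41, adjusted p = 0.0196; -0.28 at 4 h, not past the test) and Slc7a2 did not pass. The arginine carrier Slc7a1 had 9.60 and 9.86 untreated, 15.5 and 14.4 at 2 h, and 13 and 11.4 at 4 h, with all treated arrays above the untreated ones. It rose by 0.62 ± 0.09 at 2 h (adjusted p = 0.00706) and by 0.32 at 4 h (adjusted p = 0.0381, 0.06 without scaling). Slc7a7, which exchanges basic for neutral amino acids, had 128 and 123, then 226 and 220, then 174 and 160, and rose by 0.83 ± 0.07 (1.78-fold, adjusted p = 0.00155) and 0.42 (adjusted p = 0.0102), with a step down of -0.42 between the times. Slc7a3 rose by 0.47 at 4 h, and its 0.30 at 2 h was -0.07 after spike-in scaling. Slc7a2 did not pass (-0.18 and 0.10), with 6.39 and 17.7 on its 4 h arrays, and Slc7a4 of the same family fell by 0.58 at 4 h, but was 0.30 with normexp background correction.

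The glutamate carrier Slc1a3 fell at 4 h by 0.52 (139 and 133 untreated, 93.9 and 96.3 at 4 h), and the neutral amino acid carrier Slc1a4 by 0.46 (255 and 265 against 192 and 186, adjusted p = 0.0046), with -0.25 on a second probe. Neither passed at 2 h (-0.07 and -0.08), though a second probe of Slc1a3, well above background on all 6 arrays, had -0.60 at 2 h and -0.67 at 4 h. Slc6a16, an orphan of the neurotransmitter carrier family, rose from 4.69 and 3.36 to 11.6 and 11.5 at 2 h (1.53 ± 0.17, adjusted p = 0.00353, up to 0.127 over the alternatives) and to 7.15 and 6.80 at 4 h (0.81, adjusted p = 0.0195). The creatine carrier Slc6a8 had changes of 0.37 and 0.39, past the test, which were 0.00 and 0.13 after spike-in scaling.

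Among 13 mono- and dicarboxylate carriers 4 rose and none fell at 2 h (30.8% up, where 23.7% of all genes rose and 15.3% fell). At 4 h 4 rose and 3 fell (30.8% and 23.1%, where 24.6% and 18.4% of all genes did). The lactate importer and exporter Slc16a1 did not pass (447 and 457 untreated, 505 and 555 at 2 h, 516 and 499 at 4 h). Slc16a3, the lactate exporter of glycolytic cells, had 529 and 471, then 553 and 519, then 370 and 322. Its untreated and 2 h arrays overlapped and its 4 h arrays lay below both, with 0.10 at 2 h (adjusted p = 0.468), a fall of 0.53 ± 0.10 at 4 h (adjusted p = 0.0164, up to 0.0723 over the alternatives) and a step of -0.64 between the times (adjusted p = 0.0141). Slc16a6 rose from 43.5 and 43.2 to 78.7 and 77.1 at 2 h and 75.4 and 72.8 at 4 h (0.85 ± 0.05 and 0.77 ± 0.05, adjusted p = 0.000837 and 0.00118). Slc16a10, a carrier of aromatic amino acids in this family, rose from 21.6 on both untreated arrays to 34.7 and 36.7 and then 41.6 and 47.3 (0.73 and 1.04), with 0.47 and 0.41 on a second probe. Slc16a13 had neither 4 h array well above background and fell at least 1.78-fold, but was 0.34 higher with normexp background correction and the 75th percentile.

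Carriers of sodium, potassium, chloride, bicarbonate, protons, calcium and phosphate rose at a lower share than all genes, a difference that was not tested: 4 of 30 at each time (13.3%, against 23.7% and 24.6%). At 2 h 2 fell (6.67%, against 15.3% of all genes), and at 4 h 6 fell (20%, close to the 18.4% of all genes). The anion exchanger Slc4a2 (0.06 and 0.02) and the potassium-chloride carriers Slc12a4 and Slc12a7 did not pass. The sodium-potassium-chloride carrier Slc12a2 had 95.7 and 98.0 untreated, 92.6 and 93.9 at 2 h, and 71.4 and 71.8 at 4 h, and fell at 4 h by 0.44 ± 0.05 (adjusted p = 0.00439). The anion exchanger Slc4a3 fell from 45.6 and 43.7 to 27.8 and 25.5 at 2 h (-0.74 ± 0.07, adjusted p = 0.0021) and 32 and 32.2 at 4 h (-0.48). Its other probe had -0.61 at 2 h and -0.12 at 4 h. The sulfate carrier Slc26a2 fell by 0.41 and 0.62, and its relative Slc26a11 rose by 0.36 at 4 h (0.11 after spike-in scaling). The phosphate carrier Slc20a1 had 0.25 at 2 h, past the test, and -0.12 after spike-in scaling, and Slc20a2 did not pass.

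Slc4a1, the band 3 anion exchanger of red blood cells, rose from 2.64 and 1.88, near the detection limit, to 7.62 and 8.80 at 2 h and 4.86 and 4.18 at 4 h (1.88 ± 0.20 and 1.02 ± 0.20, adjusted p = 0.00309 and 0.016, up to 0.195 and 0.103 over the alternatives). Of 6 red cell markers listed, which include Slc4a1, 4 were tested, and their summed scaled signal was 12.3 and 12.7 untreated, 20.7 and 24.3 at 2 h, and 15.7 and 15 at 4 h. The globin genes Hba-a1 (0.49) and Hbb-b1 (-0.09) did not pass at 2 h, Alas2 rose at least 1.45-fold, and Klf1 was not well above background on both arrays of any group. Alas2 was tested only because its 2 h arrays were well above background, so it could pass only upward against untreated cells. The part of red cell RNA in the change of Slc4a1 was not tested. The sodium-calcium exchanger Slc8a3 had 4.34 and 34 on its 4 h arrays and did not pass, and Slc8a2 rose by 0.72 and 0.60. Slc4a4, a sodium-bicarbonate carrier, had 3.09 and 3.80 untreated and 1.43 and 1.56 at 4 h, where neither array was well above background; its change was -1.20 (adjusted p = 0.00391) against a probe at background, which allows no bound on the fold, and 0.51 with normexp background correction.

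Of 10 organic ion and bile acid carriers 2 rose and 2 fell at 2 h, and 2 rose and 1 fell at 4 h, where 23.7% and 15.3% of all genes rose and fell at 2 h and 24.6% and 18.4% at 4 h. Slc22a17, a receptor and carrier for iron-binding lipocalin, went from 29.6 and 27.8 to 42.4 and 40.5 and then 54.6 and 49.9, each group above the one before it. It rose by 0.53 ± 0.08 (adjusted p = 0.00757) and 0.86 ± 0.08 (adjusted p = 0.00195), with 0.61 and 0.97 on its second probe. Of the carnitine carriers, Slc22a5 fell by 0.48 and 0.38, and Slc22a21 fell by 0.64 at 2 h (adjusted p = 0.0312, up to 0.224 over the alternatives) and did not pass at 4 h. Slc22a5 was -0.07 at 4 h with normexp background correction. Slc22a16 (0.06 and -0.18) and the mitochondrial carnitine and acylcarnitine carrier Slc25a20 (0.04 and 0.02) did not pass. Slc22a4, which carries ergothioneine, an antioxidant, rose by 0.81 ± 0.15 and 0.58 ± 0.15 from 5.50 and 4.57 in untreated cells (0.44 and 0.32 after spike-in scaling).

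The remaining classes were small. Of 4 fatty acid carriers none passed at 2 h, and Slc27a4 fell at 4 h from 100 and 89.4 to 57.3 and 52 (-0.79 ± 0.12, adjusted p = 0.00762), with -0.43 on a second probe. Of the 6 carriers of nucleotide sugars and acetyl-CoA in the Golgi and endoplasmic reticulum none passed at 2 h, and Slc33a1 rose by 0.54 at 4 h. Of 4 vesicular and lysosomal carriers only the lysosomal sialic acid carrier Slc17a5 passed, at 4 h (0.25, but -0.01 without scaling). The urea carrier Slc14a2 had 0.36 and 0.31 (-0.01 and 0.06 after spike-in scaling). Among the 4 names that are not carriers Slc4a1ap fell by 0.48 at 2 h and did not pass at 4 h (-0.05).

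**Figure D5:**
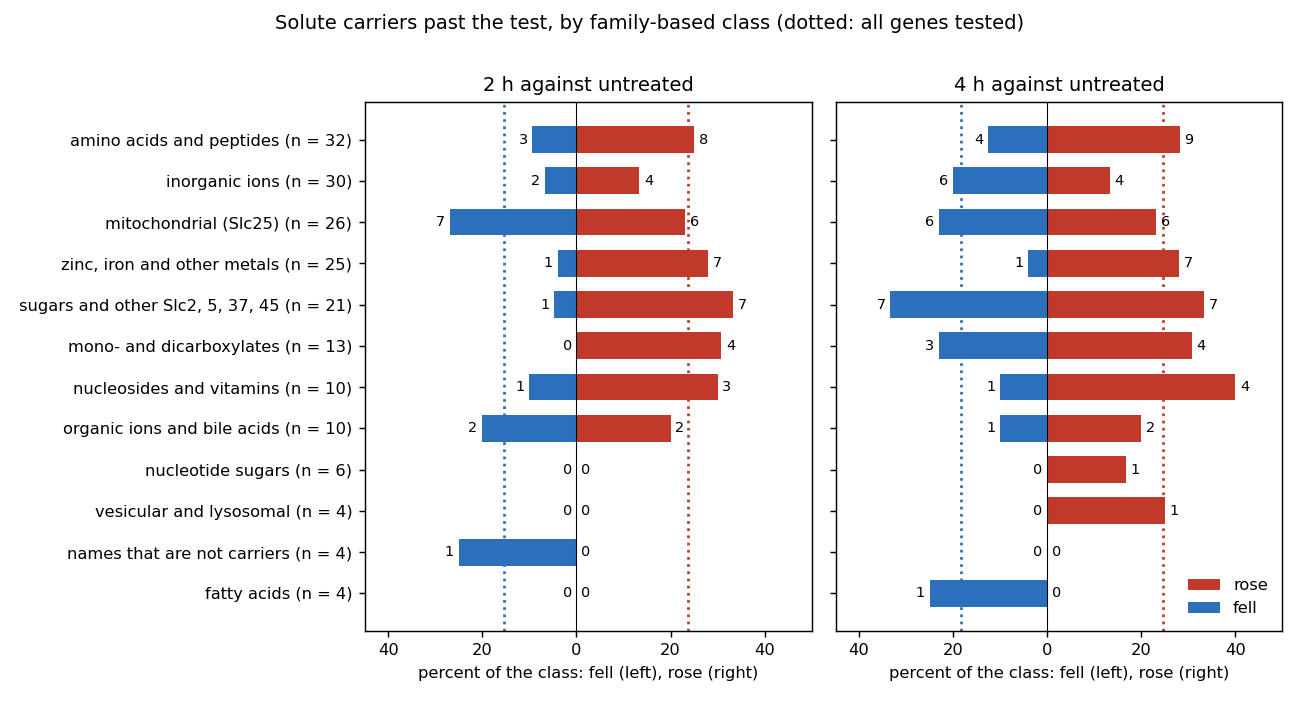
Share of each class of 4 or more solute carriers that rose (red, to the right) or fell (blue, to the left) at 2 h and at 4 h, in percent of the class, with the number of genes at the end of each bar; dotted lines are the shares of all 17336 genes tested. At 2 h falls reach past the blue line for mitochondrial carriers (26.9%), organic ion carriers (20%) and the names that are not carriers (25%). At 4 h they do so for sugar (33.3%), fatty acid (25%), mitochondrial (23.1%), mono- and dicarboxylate (23.1%) and inorganic ion carriers (20%). The metal carriers have 1 fall at each time.

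Other membrane transport genes were counted in the same way. Of 31 ABC transporters well above background in untreated cells 5 rose and 2 fell at 2 h and 6 rose and 5 fell at 4 h, and of 23 P-type ATPase pumps 4 rose and none fell at 2 h and 4 rose and 1 fell at 4 h. Of all genes well above background in untreated cells 20.8% rose and 16.2% fell at 2 h, and 22.3% and 19.4% at 4 h. None of 4 aquaporins passed at either time, and of 3 Slco genes 1 rose and 2 fell at 4 h. Of the 5 carriers left out by name, the cystine carrier Slc7a11 had 1.62 and 1.5, and Slc3a2, which encodes its heavy chain, had 0.22 and 0.15 and did not pass.

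Markers of other cell types were also measured, in lists of unequal length. The summed scaled signal of 6 endothelial markers tested was 53.9 and 58.6 untreated, 108 and 98.9 at 2 h, and 97.4 and 99.2 at 4 h. At 2 h Vwf went from 8.76 and 9.22 to 31.5 on both arrays, and Cldn5 from 0.654 and 1.91 to 21.3 and 10.9. Pecam1 (2.56) and Emcn (0.53) also rose at 2 h, Kdr (0.1) and Tek (0.05) did not pass, and Cdh5 and Tie1 were not tested. The sum of 7 kidney tubule and gut markers tested was 91.1 and 89.0, then 454 and 500, then 331 and 308. Most of this kidney and gut rise lay in Vil1, which rose at least 75.7-fold at 2 h from below background, and the left-out carrier Slc5a2, with 2.78 and 2.12 untreated, 232 and 217 at 2 h, and 168 and 155 at 4 h. The other 5 summed to 87.5 and 86.2, then 97.2 and 97.6, then 78.7 and 74.2. Of these Cubn rose at 2 h (0.68), Lrp2 fell at 4 h (-0.50, adjusted p = 0.013), and Aqp2 and the members Slc12a1 and Slc22a8 did not pass; Umod, Slc34a1, Slc12a3, Slc22a6 and Slc5a1 were not tested. The 9 macrophage and leukocyte markers tested summed to 333 and 310 untreated, 377 and 365 at 2 h, and 406 and 379 at 4 h. Of 7 epithelial markers tested 3 rose at both times (Cdh1, Krt8 and Krt18), and Krt5, Krt14, Krt19 and Cldn7 did not pass. Cdh1 rose at least 4.06-fold at 2 h and was at background before treatment. Cdh1, Vil1, Cldn5 and Pecam1 were tested only because treated arrays were well above background, so they could pass only upward against untreated cells. The epithelial sums were 350 and 317, then 443 and 430, then 434 and 387. The 4 neural markers tested summed to 492 and 493, then 597 and 569, then 528 and 491. The 4 skeletal muscle markers tested summed to 2660 and 3510, then 2960 and 3910, then 2810 and 3230, of which Actc1 made up 2520 and 3380 untreated and did not pass. The part of such markers in the changes of Slc23a3, Slc39a4, Slc2a5 and the other carriers known from kidney, gut or blood cells was not tested.

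Of the 187 members 82 had more than 1 probe. Among members past the test, 22 of 26 other probes well above background on all 6 arrays had the same sign at 2 h, and 21 of 22 at 4 h. The probes that differed in sign include those of Slc25a37, Slc25a3 and, at 4 h, Slc11a2.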

How the data were processed

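Samples of total RNA from primary mouse embryonic fibroblasts were hybridised to 6 one-colour Agilent arrays, 2 per time point (0 h, 2 h and 4 h). The values are the deposited intensity readings of each spot, made with Feature Extraction 9.5.3.1 (protocol GE1-v5_95_Feb07) per the file headers, which subtract background. The authors' deposited value table of intensity equalled the processed signal within 5e-04 and served as an alternative source. The labels name separate experiments for the replicates.

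Here log2(processed signal) minus each array's 75th percentile was taken over 43379 non-control spots; outlier spots were left out and spots of a probe averaged. The brightest probe stood for a gene name. Of 27962 names 17336 were tested, those for which some group had both its arrays well above background. The fit used limma 3.58.1 in R 4.3.3 over all 6 arrays with Benjamini-Hochberg adjustment and a threshold of 0.05 (3 residual and 1.63 prior degrees of freedom), and was tested on simulated data. Slc36a3 had 5 arrays. Only 2 replicate numbers are shared by the groups; deviations of same-numbered arrays correlated at 0.19 to 0.25 over 17305 genes, and slide and replicate number coincide. Promoters came from RefSeq (GRCm38.p6), with windows for 140 members. Gene names were matched to RefSeq by accession for 173 members and by symbol for 14.

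The members, classes, marker lists and motifs were chosen with earlier results of these data known. The genes named are the 10 largest rises and falls at 2 h and 4 h whose arrays do not overlap, the 6 each way between the times, up to 4 each way with only a bound, genes chosen by role, the extremes of each class, and the genes at the detection threshold; the others were added after their values were seen, to fill out their classes. Some members that this rule would name, and a red cell marker, are not reported here by name; they stay in the counts. Folds called "at least" set the brighter group against the lowest signal that was well above background on each dim array. Alternatives covered scaling (quantile, median, none, spike-in), normexp background correction (offset 50), the value table, the filter on dim probes, the probe, the slide as replicate block, the groups in the fit, membership and leaving out each array.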

Additional observations from a re-analysis of the deposited data

Results flagged for a closer look

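The change at 4 h differed from that at 2 h, both against the same untreated arrays, in a test of the difference itself (limma over all 17336 genes, Benjamini-Hochberg adjusted p under 0.05) for 16 members that were higher at 4 h and 28 that were lower. Those named for a change at 2 h or 4 h are given below; each value is the change at 4 h minus that at 2 h on the log2 scale, from 2 arrays per group.

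Members that had risen at 2 h and stood lower at 4 h were Slc2a5 (-1.48, adjusted p = 0.00294), Slc39a4 (-1.01, adjusted p = 0.0108), Slc4a1 (-0.86, adjusted p = 0.0336), Slc45a3 (-0.81, adjusted p = 0.00729), Slc6a16 (-0.72, adjusted p = 0.0353) and Slc7a7 (-0.42, adjusted p = 0.0141). Among those lower at 4 h than at 2 h without a rise at 2 h were Slc4a4 (-1.34, adjusted p = 0.00483), Slc2a12 (-0.97, adjusted p = 0.0316), Slc2a4 (-0.67, adjusted p = 0.00531), Slc16a3 (-0.64, adjusted p = 0.0141), Slc27a4 (-0.58, adjusted p = 0.0248) and Slc39a3 (-0.52, adjusted p = 0.0232). Neither 4 h array was well above background for Slc4a4 and Slc2a12, so these amount to bounds, at least 1.05-fold and 1.37-fold lower. Lower without a rise at 2 h were also Slc5a7 (-0.51, adjusted p = 0.0123), Slc43a1 (-0.49, adjusted p = 0.00756), Slc25a13 (-0.43, adjusted p = 0.0141), Slc25a14 (-0.42, adjusted p = 0.00949), Slc25a11 (-0.41, adjusted p = 0.0159), Slc12a2 (-0.38, adjusted p = 0.00918) and Slc1a4 (-0.38, adjusted p = 0.0113).

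Members that had fallen at 2 h and stood higher at 4 h were Slc25a27 (1.08, adjusted p = 0.00868), Slc40a1 (0.67, adjusted p = 0.00381), Slc25a28 (0.63, adjusted p = 0.0169), Slc4a1ap (0.43, adjusted p = 0.0329) and Slc4a3 (0.27, adjusted p = 0.0452). Of the others, those higher at 4 h than at 2 h included Slc5a8 (1.04, adjusted p = 0.0197), Slc25a36 (0.74, adjusted p = 0.021), Slc11a2 (0.53, adjusted p = 0.0115), Slc19a2 (0.48, adjusted p = 0.00714) and Slc22a17 (0.33, adjusted p = 0.0331). Slc11a2 had -0.51 on a second probe, and with normexp background correction and the 75th percentile Slc4a1, Slc4a4 and Slc2a12 had 0.13, 0.29 and 0.32.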

How the results depend on the processing

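Of 84 results of named genes past the test, 22 kept their direction and passed under every alternative run, and none changed with the value table. Relative to the 75th percentile, which left the median of all genes at 0.12 and 0.07 at 2 h and 4 h, quantile, median, no and spike-in scaling lowered that median to 0.00, -0.08, -0.22 and -0.25 at 2 h. Rises at 2 h numbered 42, and 27 after quantile normalization, 16 after median centring, 12 without scaling, 10 after spike-in scaling, 27 with normexp and quantile, 7 with normexp and the 75th percentile, and 17 with no filter on dim probes. Falls at 2 h numbered 18, and 57, 39, 2 and 10 without scaling, after spike-in scaling, with normexp and the 75th percentile, and with no filter. Rises at 4 h numbered 46, and 25 after median centring, 20 without scaling, 17 after spike-in scaling, 14 with normexp and the 75th percentile, and 26 with no filter. Falls at 4 h numbered 30, and 72 without scaling, 53 after spike-in scaling and 8 with normexp and the 75th percentile. Between the times, rises went from 16 to 10 after spike-in scaling, 1 with normexp and the 75th percentile, and 4 with no filter. Falls went from 28 to 12, 0 and 10. With normexp and the 75th percentile limma called no fall among the members between the times.

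With the replicate block (slide), rises and falls were 59 and 24 at 2 h, 51 and 42 at 4 h, and 21 and 53 between the times. It ended the call of 1 of the 84 results. It also ended that of Slc5a8 at 2 h (adjusted p = 0.0511), which is not among the 84. Of 39 named results that did not pass it brought 11 past the test. These were Slc39a1 and Slc39a14 (0.32 and 0.30), Slc6a6 (0.24), Slc29a1 (0.25), Slc25a11 (0.17) and Slc11a2 (-0.22) at 2 h, and Slc39a1 (0.26), Slc39a14 (0.55), Slc25a4 (0.18), Slc25a11 (-0.24) and Slc38a2 (-0.22) at 4 h. Normexp with the 75th percentile ended the call of 51 of the 84 and turned 8. Leaving out each array in turn gave 17 to 39 rises and 7 to 18 falls at 2 h, 24 to 36 and 19 to 27 at 4 h, and 3 to 12 and 10 to 28 between the times; it leaves a group with 1 array, assumed to vary like the others. Without the 4 names that are not carriers, an alternative chosen after seeing the data, the counts were 42 and 17, 46 and 30, and 15 and 28.

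Of all 42 members that rose at 2 h, 12 were negative without scaling and 14 after spike-in scaling. Among the 84 named results and the 39 that did not pass, the direction turned in these cases. At 2 h without scaling and after spike-in scaling, the values were -0.09 and -0.12 for Slc25a37, -0.07 and -0.10 for Slc25a4, -0.02 and -0.05 for Slc25a5, -0.09 and -0.12 for Slc25a3, and -0.09 and -0.12 for Slc20a1. Slc2a3 had -0.24 without scaling, and Slc14a2 had -0.01 after spike-in scaling. At 4 h the pair of values was -0.03 and -0.02 for Slc25a3 and -0.01 and 0.00 for Slc17a5. After quantile normalization Slc25a4, Slc25a5 and Slc20a1 had -0.14, -0.01 and 0.00 at 2 h and Slc25a5 had 0.00 at 4 h, and with normexp and quantile Slc25a4 and Slc25a5 had -0.11 and -0.03 at 2 h. With normexp and the 75th percentile Slc2a12, Slc4a4, Slc16a13 and Slc29a2 had 0.41, 0.51, 0.34 and 0.17 at 4 h, and Slc4a1, Slc12a5, Slc4a4 and Slc2a12 had 0.13, 0.06, 0.29 and 0.32 between the times. On the second brightest probe Slc25a3 and Slc14a2 had -0.11 and -0.01 at 2 h and Slc11a2 had -0.97 at 4 h and -0.51 between the times; the mean of its probes was -0.12 at 4 h. Beyond what each alternative changes by construction, the cause was not tested.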

Other observations

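Outside the members, 100 Slc names were not well above background on both untreated arrays, and 17 of them were tested because both arrays of a treated group were. Against untreated cells such genes could pass only upward, so their number is a description. Slc22a13, a urate and organic anion carrier, had a scaled signal of 1.74 and 0.982 untreated, 21.4 and 20.3 at 2 h, and 13.8 and 12 at 4 h, at least 10.4-fold and 6.39-fold higher. Slc27a5, a bile acid and fatty acid ligase known from the liver, had 1.53 and 0.886, then 17.3 and 17, then 9.38 and 9.13, at least 8.53-fold and 4.61-fold higher. Neither was well above background on an untreated array, and both stood above it on all 4 treated arrays.

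Slc32a1, the vesicular GABA carrier of inhibitory neurons, had 0.544 and 0.665 untreated, 15 and 16 at 2 h, and 2.84 and 3.44 at 4 h. It was at least 7.71-fold higher at 2 h, and its 4 h arrays lay below its 2 h arrays (-2.31). It was tested only because both 2 h arrays were well above background, so a fall from 2 h was favoured in advance. Slc26a4, an iodide and chloride exchanger, followed the same course and entered the test in the same way, with 9.87 and 9.84 at 2 h and 2.62 and 3.71 at 4 h. Slc3a1, a heavy chain of amino acid exchangers in the kidney, was just outside the detection rule and went on up, from 2.56 and 2.51 to 13.1 and 19.2 and then 29.8 and 28.4. Levels of most of the other names were near background on all arrays, and 83 of the 100 were not well above background on both arrays of any group.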
